A study of Mus musculus with 7 samples.

Results

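The 10 genes described here encode dual-specificity phosphatases, enzymes that remove phosphate from both threonine and tyrosine residues and are best known as the switches that turn off MAP kinases. They were Dusp1, Dusp4, Dusp5, Dusp6, Dusp8, Dusp10, Dusp13, Dusp16, Dusp18 and Dusp26, out of 22180 genes named on the array and 13364 genes that passed a filter on signal. All 10 passed it. The family was chosen with earlier results of these arrays in view, and 1 array feature per gene was selected on the highest mean signal over the 7 arrays, a choice that does not use the groups. The levels and differences below therefore describe the chosen genes, and each adjusted p comes from the fit of all 13364 genes and is not independent evidence about the family.

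RNA from whole skeletal muscle of C57BL/6 mice was measured on 7 gene arrays, which the submitters describe as biological replicates. Aged MISR mice (24 months) gave 2 arrays, aged WT mice (24 months) gave 2 and young WT mice (2 to 3 months) gave 3. MISR mice carry a transgene for a non-degradable form of IκB under the muscle creatine kinase promoter, which blocks NF-κB in myofibers but not in satellite cells. The methods give in-house breeding for the MISR line and commercial colonies for C57BL/6 mice. Whether the arrayed WT mice were littermates is not stated, and if they came from those colonies, genotype and source cannot be told apart. Which muscle was taken, and from which sex, is not stated in the labels or methods.

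MAP kinases relay growth, cytokine and stress signals through phosphorylation of an activation loop, and the MAP kinase phosphatases reset them by taking both phosphates off. Some of these phosphatases are nuclear and are themselves transcribed quickly when ERK or stress kinases are active (Dusp1, Dusp4, Dusp5), one is a cytoplasmic ERK-selective enzyme that acts in negative feedback (Dusp6), and others prefer the stress kinases JNK and p38 (Dusp8, Dusp10, Dusp16). The small atypical members (Dusp13, Dusp18, Dusp26) lack the kinase-binding domain, and not all of them act on MAP kinases. In skeletal muscle, ERK, JNK and p38 signaling takes part in satellite cell activation, myoblast differentiation and the response to contraction.

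Signal is given as log2 of the RMA value, so that 1 unit is a doubling, and levels of different genes are not compared because probes differ in response. Array medians over all features lay between 5.86 and 5.93. The skeletal muscle identity list (Actn3, Casq1, Mb and others) was tested in full, 10 of 10, and its median centred signal stayed between -0.06 and 0.04 in every array. Within it, Actn3 ranged from 13.41 to 13.65 and Mb, which had the largest differences of the list, from 12.21 to 12.99. Mb, encoding the oxygen store myoglobin, differed by 0.40 between aged MISR and aged WT (adjusted p = 0.383) and by -0.47 between aged WT and young WT (adjusted p = 0.204). The arrays were less alike in aged mice: the SD of the difference between arrays was 0.316 for the MISR pair, 0.253 for the aged WT pair and 0.213 to 0.228 for the young pairs. In whole muscle, fewer cells of a type and less RNA per cell cannot be told apart.

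**Figure D1:**
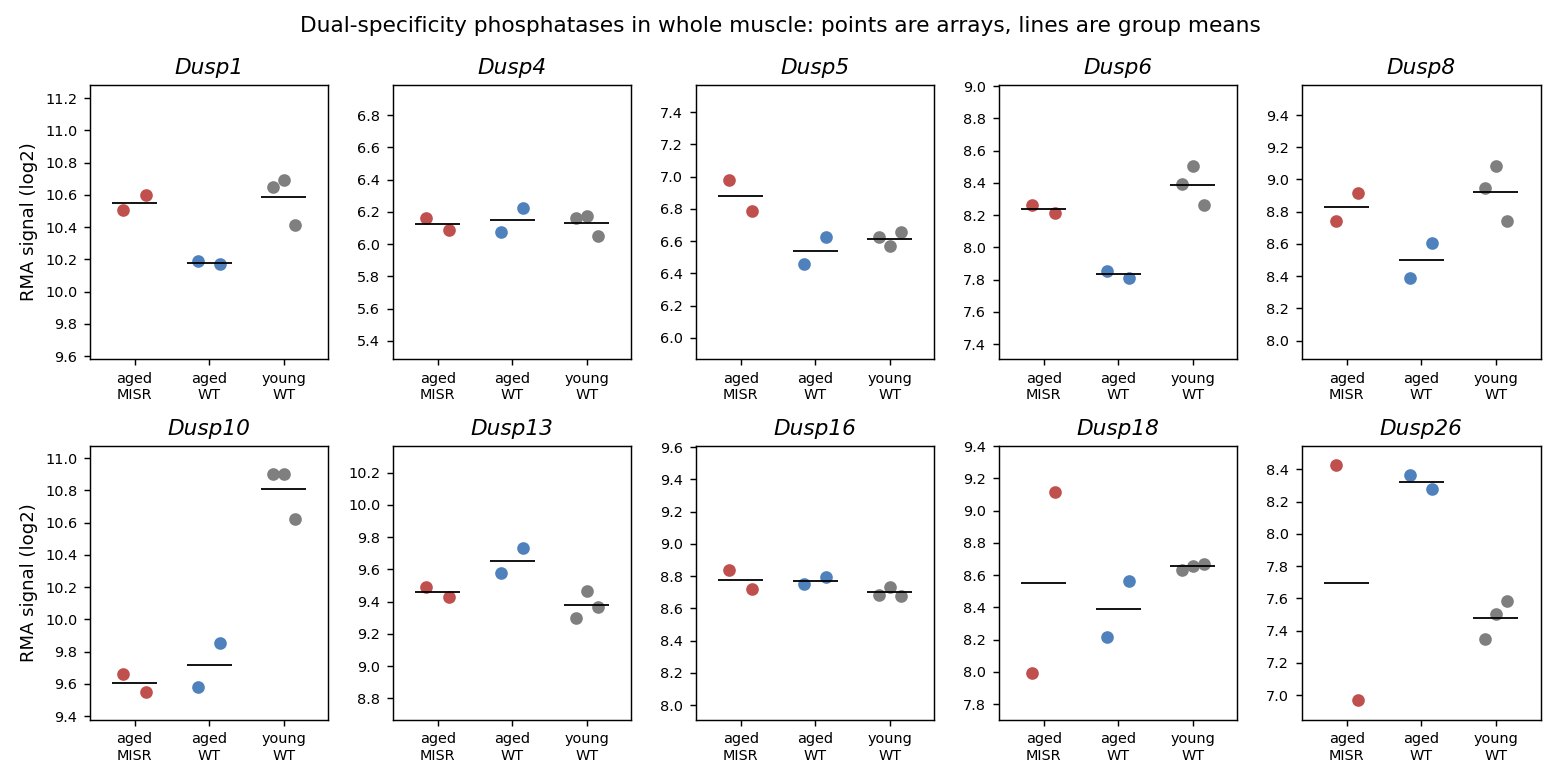
RMA signal (log2, y axis) of the 10 phosphatase genes in aged MISR, aged WT and young WT muscle. Each point is 1 array, each line is a group mean, and every panel spans the same number of log2 units. All 4 aged arrays lie below all 3 young arrays for Dusp10, aged WT arrays are the lowest for Dusp1, Dusp6 and Dusp8, and the MISR arrays lie far apart for Dusp18 and Dusp26.

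Dusp10 (array feature 17220475), a phosphatase of JNK and p38, carried the only calls in the family and was lower in aged muscle of both genotypes than in young muscle. Its signal was 9.66 and 9.55 in aged MISR muscle, 9.58 and 9.85 in aged WT muscle, and 10.90, 10.90 and 10.62 in young WT muscle. The highest aged array was therefore below the lowest young array, while the MISR and aged WT arrays overlapped. Against young WT, Dusp10 was 2.13-fold lower in aged WT muscle (log2 difference -1.09 ± 0.12 SE, n = 2 against 3, adjusted p = 0.0356, limma). The fold was 2.30 in aged MISR muscle (-1.20 ± 0.12, adjusted p = 0.0214), again lower than in young WT. These comparisons share the young arrays. Between the aged groups the difference was -0.11 ± 0.13 (adjusted p = 0.765). By unadjusted limma p, Dusp10 stood in place 12 of 13364 for aged WT against young WT and in place 11 for aged MISR against young WT.

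The Dusp10 difference kept its direction, but its call depended on single arrays. Over all alternatives run it lay between -1.23 and -0.96 in aged WT muscle and between -1.29 and -1.15 in aged MISR muscle, both against young WT. With aged WT 2 left out the aged WT difference was -0.96 (adjusted p = 0.228) and with aged WT 3 left out it was -1.23 (adjusted p = 0.0641). That call also ended with no filter on signal (adjusted p = 0.0551) and by the methods' t-test, which the study names for other assays and not for the arrays (adjusted p = 0.240). The aged MISR call against young WT ended without MISR 1 (adjusted p = 0.0648), without aged WT 3 (adjusted p = 0.0501), in a fit of those groups alone (adjusted p = 0.0501) and by the methods' t-test (adjusted p = 0.243). Leaving out any 1 young array ended both calls.

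The slow fiber list, contractile and related genes of slow-twitch fibers, separated the aged from the young arrays as Dusp10 did. Unlike Dusp10, it also spread the arrays widely within the aged groups. In values centred on each gene's mean over the 7 arrays, its median (10 of 10 genes tested) was -0.99 and 0.07 in aged MISR muscle, -0.07 and -0.65 in aged WT muscle, and 0.45, 0.52 and 0.47 in young WT muscle. All 4 aged arrays lay below the 3 young ones, with a wide spread within both aged groups. Within each aged group the order of the arrays was the reverse of that for Dusp10. The median difference of the list was -0.77 for aged WT against young WT and -0.90 for aged MISR against young WT. In each, 8 of its 10 genes were lower without overlap, against 15.7% and 13.6% of all genes. At an unadjusted p under 0.05, 6 and 8 were lower, against 6.41% and 6.97% of all genes, and limma called 0. Tpm3 of this list was higher without overlap in aged MISR against young WT (0.26, adjusted p = 0.254). The part of fiber type in the Dusp10 values was not tested.

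The proximal promoter of Dusp10 is shown because no other member was called. RefSeq (GRCm38.p6) places it at chr1:184034131-184034430 on the plus strand, from 250 bases before the start to 50 after it, printed 5′ to 3′. Capitals, here and in the other promoters, mark a CRE (TGACGTCA), an AP-1 match (TGANTCA), a CArG box or a κB site on either strand, and Dusp10 held none of them.
Dusp10 promoter: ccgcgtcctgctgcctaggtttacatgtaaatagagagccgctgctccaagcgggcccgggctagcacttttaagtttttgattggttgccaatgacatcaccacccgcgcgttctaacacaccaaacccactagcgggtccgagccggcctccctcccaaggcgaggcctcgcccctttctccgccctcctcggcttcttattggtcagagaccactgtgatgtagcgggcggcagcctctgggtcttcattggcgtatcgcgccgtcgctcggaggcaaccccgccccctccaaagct
It holds 4 CCAAT boxes (searched as ATTGG on both strands), beginning 169, 161 and 49 bases before the start and at the start base itself. That pentamer occurs in 37.4% of 32851 promoters of the same length, so its presence is common.

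To place the Dusp10 pattern, its values were centred on the gene's mean over the 7 arrays and set against every other tested gene by root mean square difference. The nearest gene was Mettl21c, a lysine methyltransferase, at 0.117. Its signal was 9.41 and 9.04 in aged MISR muscle, 9.12 and 9.20 in aged WT muscle and 10.32, 10.45 and 10.12 in young WT muscle, with no overlap between the aged and the young arrays. Prima1, which anchors acetylcholinesterase at the membrane, followed at 0.153. E230001N04Rik stood at 0.186, 1700030N03Rik at 0.223 and Kera, a small proteoglycan, at 0.226. Of these 5 genes, 4 were called lower in aged WT against young WT muscle (Mettl21c, Prima1, E230001N04Rik and 1700030N03Rik), against 0.0823% of all genes. Kera was not called (-0.86, adjusted p = 0.182). The 5 were picked for their nearness to Dusp10, so these calls follow largely from the choice and are no separate evidence. Prima1 and E230001N04Rik lay under the array medians in every aged array, so they passed the filter only through the young arrays.

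**Figure D2:**
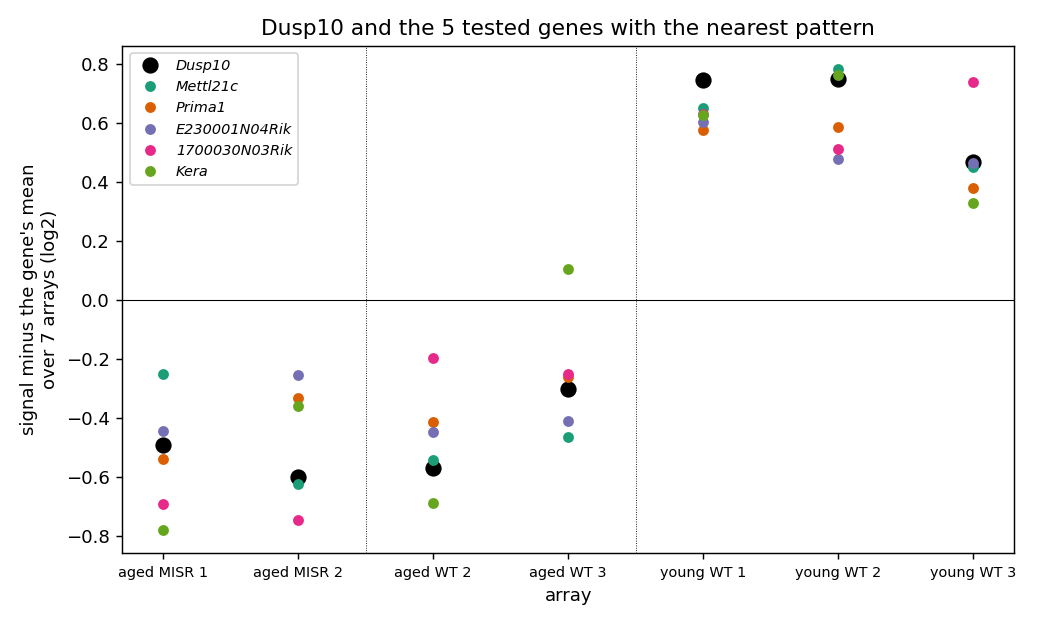
Signal minus each gene's own mean over the 7 arrays (log2, y axis) by array (x axis), for Dusp10 (large black points) and the 5 tested genes nearest to it. For Dusp10 the 4 aged arrays lie between -0.60 and -0.30 and the 3 young arrays between 0.47 and 0.75.

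The other JNK- and p38-directed members differed from Dusp10. Dusp8 gave 8.74 and 8.91 in aged MISR muscle, 8.39 and 8.61 in aged WT muscle, and 8.95, 9.09 and 8.74 in young WT muscle. Both aged WT arrays lay below all others, and the MISR arrays fell within or next to the young range. The difference was 0.33 ± 0.13 between aged MISR and aged WT (adjusted p = 0.383) and -0.43 ± 0.12 between aged WT and young WT (adjusted p = 0.178), so neither was called. Dusp16 was nearly flat, at 8.84 and 8.72 in aged MISR muscle, 8.75 and 8.80 in aged WT muscle, and 8.68, 8.74 and 8.68 in young WT muscle. Its largest group difference was 0.08 ± 0.07, between aged MISR and young WT (adjusted p = 0.516).

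Dusp6, the cytoplasmic ERK phosphatase that ERK signaling itself induces, was lowest in aged WT muscle. Its signal was 8.26 and 8.22 in aged MISR muscle, 7.85 and 7.81 in aged WT muscle, and 8.39, 8.51 and 8.26 in young WT muscle. The aged WT pair stood apart from the other 5 arrays, and the lowest young array lay just above the higher MISR array. The aged MISR level was 1.32-fold above aged WT (0.41 ± 0.09, adjusted p = 0.166). The aged WT level was 1.47-fold below young WT (-0.55 ± 0.08), with an adjusted p of 0.0563, just over the threshold of 0.05. It crossed that threshold when arrays were quantile-normalized again (adjusted p = 0.0352), with a filter at the 60th percentile (adjusted p = 0.0481) with a trended robust variance prior (adjusted p = 0.0378), with array weights (adjusted p = 0.0422) and without either MISR array (adjusted p = 0.0498 each). Without 1 aged WT or 1 young array it lay between 0.0879 and 0.276. A second feature annotated to Dusp6 gave 3.73 to 3.90 in all arrays, below the array medians; averaging both features brought the aged WT difference from young WT to -0.28 (adjusted p = 0.137).

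Dusp1, the founding nuclear phosphatase of the immediate-early response, followed the same order of groups. It gave 10.51 and 10.60 in aged MISR muscle, 10.19 and 10.17 in aged WT muscle, and 10.65, 10.69 and 10.41 in young WT muscle. Both aged WT arrays lay below the other 5, and the MISR arrays sat inside the young range. The Dusp1 difference was 0.37 ± 0.10 between aged MISR and aged WT (adjusted p = 0.231) and -0.41 ± 0.09, or 1.33-fold, between aged WT and young WT (adjusted p = 0.138). Between aged MISR and young WT the difference was -0.03 ± 0.09 (adjusted p = 0.866).

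Dusp5, a nuclear ERK-specific phosphatase, was highest in aged MISR muscle. It gave 6.98 and 6.79 in aged MISR muscle, 6.46 and 6.62 in aged WT muscle, and 6.62, 6.57 and 6.65 in young WT muscle. The MISR arrays lay above all 5 WT arrays, and the aged and young WT arrays overlapped. The aged MISR level exceeded aged WT by 0.34 ± 0.09 (adjusted p = 0.226) and young WT by 0.27 ± 0.08 (adjusted p = 0.176). Dusp4, a nuclear phosphatase of ERK and JNK, was close to the array medians, at 6.16 and 6.09 in aged MISR muscle, 6.08 and 6.22 in aged WT muscle, and 6.16, 6.18 and 6.05 in young WT muscle. All groups overlapped and no difference of Dusp4 exceeded 0.03 in size.

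Promoters of Dusp1, Dusp8 and Dusp6, which were lowest in aged WT muscle with young WT highest in mean, are shown beside that of Dusp5, which was highest in aged MISR muscle, so that their letters can be compared. The RefSeq promoter table used here matched 8 of the 10 members, and promoters of Dusp4 and Dusp26 were not analysed here. Dusp1 lies at chr17:26508423-26508722 (minus), Dusp8 at chr7:142095235-142095534 (minus), Dusp6 at chr10:99262981-99263280 (plus) and Dusp5 at chr19:53528895-53529194 (plus), each printed 5′ to 3′ on the gene's strand.
Dusp1 promoter: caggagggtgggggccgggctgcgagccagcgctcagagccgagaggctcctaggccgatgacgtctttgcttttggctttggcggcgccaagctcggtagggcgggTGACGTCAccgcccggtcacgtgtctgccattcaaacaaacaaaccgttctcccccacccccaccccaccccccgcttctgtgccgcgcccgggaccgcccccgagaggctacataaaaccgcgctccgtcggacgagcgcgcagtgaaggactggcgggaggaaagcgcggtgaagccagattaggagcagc
Dusp8 promoter: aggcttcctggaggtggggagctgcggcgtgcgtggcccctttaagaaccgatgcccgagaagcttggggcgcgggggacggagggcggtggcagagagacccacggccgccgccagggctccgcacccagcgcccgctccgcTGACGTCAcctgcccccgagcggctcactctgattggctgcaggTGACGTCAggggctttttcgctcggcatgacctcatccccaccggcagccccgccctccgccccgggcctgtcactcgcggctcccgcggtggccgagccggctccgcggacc
Dusp6 promoter: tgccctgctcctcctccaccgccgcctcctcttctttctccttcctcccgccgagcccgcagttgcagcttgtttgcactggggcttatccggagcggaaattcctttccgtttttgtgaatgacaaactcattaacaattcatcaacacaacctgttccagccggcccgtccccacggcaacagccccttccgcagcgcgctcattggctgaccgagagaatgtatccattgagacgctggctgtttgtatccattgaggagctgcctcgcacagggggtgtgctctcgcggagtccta
Dusp5 promoter: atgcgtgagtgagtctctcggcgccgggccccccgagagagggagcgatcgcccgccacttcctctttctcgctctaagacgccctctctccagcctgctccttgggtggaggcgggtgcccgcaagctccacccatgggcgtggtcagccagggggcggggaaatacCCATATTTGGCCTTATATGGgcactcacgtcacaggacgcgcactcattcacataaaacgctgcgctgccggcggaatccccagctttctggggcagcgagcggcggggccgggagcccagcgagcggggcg
Dusp1 held 1 CRE, the letters bound by CREB family factors, 143 bases before the start, and Dusp8 held 2, at 107 and 63 bases before it. A CRE was found in 1.79% of the 32851 promoters. Dusp5 held 2 adjoining CArG boxes, the letters read by serum response factor, at 82 and 72 bases before the start, against 1.63% of promoters with any. Dusp6 matched neither motif here. Of all promoters, 4.51% held a κB site, 7.81% an AP-1 match and 7.15% an E-box (CACGTG). No member window held a κB site, and Dusp1 held the only E-box. Dusp13, searched in several windows where the other members had 1, held the only AP-1 match, in 1 of them. These matches describe letters in a short window and say nothing of binding.

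Among the atypical members, Dusp13, whose mouse locus encodes a muscle-restricted and a testis form, was highest in aged WT muscle. It gave 9.49 and 9.43 in aged MISR muscle, 9.57 and 9.73 in aged WT muscle, and 9.30, 9.46 and 9.36 in young WT muscle. The aged WT arrays were the highest and did not overlap either other group. The difference was -0.19 ± 0.09 between aged MISR and aged WT (adjusted p = 0.434) and 0.28 ± 0.08 between aged WT and young WT (adjusted p = 0.180). The feature does not separate the forms of the locus.

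Dusp26, an atypical phosphatase with high expression in brain and muscle, differed most between replicates. It gave 8.43 and 6.97 in aged MISR muscle, 8.37 and 8.28 in aged WT muscle, and 7.35, 7.50 and 7.59 in young WT muscle. MISR 1 matched the aged WT arrays, and MISR 2 lay below every young array. Only 55 of the 13364 genes (0.412%) had a gap between the MISR arrays as large as its 1.46. The aged WT level was 1.80-fold above young WT without overlap (0.85 ± 0.36, adjusted p = 0.323), and a fit of those groups alone, which leaves the MISR spread out, gave an adjusted p of 0.0321. Between aged MISR and aged WT the difference was -0.63 ± 0.40 (adjusted p = 0.568), but -1.36 without MISR 1 (adjusted p = 0.0333) and 0.10 without MISR 2 (adjusted p = 0.750). Against young WT the aged MISR difference of 0.22 likewise became -0.51 without MISR 1 and 0.95 without MISR 2 (adjusted p = 0.122 and 0.0244). No genotype direction can be given for Dusp26.

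Dusp18, an atypical phosphatase, split the MISR arrays in the opposite sense. It gave 7.99 and 9.12 in aged MISR muscle, 8.21 and 8.57 in aged WT muscle, and 8.63, 8.66 and 8.67 in young WT muscle. MISR 1 was the lowest and MISR 2 the highest of all arrays, whereas the young arrays spanned 0.04. As large a MISR gap was seen in 111 genes (0.831%). The difference between aged MISR and aged WT was 0.16 ± 0.32 (adjusted p = 0.870), and it was 0.73 without MISR 1 and -0.40 without MISR 2.

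Gene lists that also separated the MISR arrays are given beside these 2 genes, and their part in the result was not tested. In values centred on each gene's mean, the neutrophil list (10 of 10 tested) had a median of 0.97 in MISR 1 and -1.15 in MISR 2, and the megakaryocyte and platelet list (8 of 10 tested) had 1.07 and -0.47. The T and B cell list (4 of 10 tested) stood at 0.96 in MISR 1 and 0.00 in MISR 2, the slow fiber list at -0.99 and 0.07, and the adipocyte list (7 of 10) at -0.20 and 0.50. In aged WT arrays the neutrophil list had 0.51 and -0.52, and the young arrays ranged from -0.16 to 0.40. The 5 genes nearest to Dusp26, looked for after its values were seen, were Snora62 (0.135), Lsmem1 (0.143), Fam83d (0.152), Snora74a (0.157) and Rnu3a (0.161). Of these, Snora62, Snora74a and Rnu3a are small non-coding RNAs. Those nearest to Dusp18 were Pmp22 (0.103), a myelin gene, Slc15a5 (0.113), Mchr1 (0.12), Adcy5 (0.127) and Retsat (0.138). The Schwann cell and myelin list (3 of 8 tested, Pmp22 among them) had centred medians of -0.04 in MISR 1 and 0.16 in MISR 2. Its gene Sox10 went the other way, at 6.19 in MISR 1 and 6.09 in MISR 2.

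**Figure D3:**
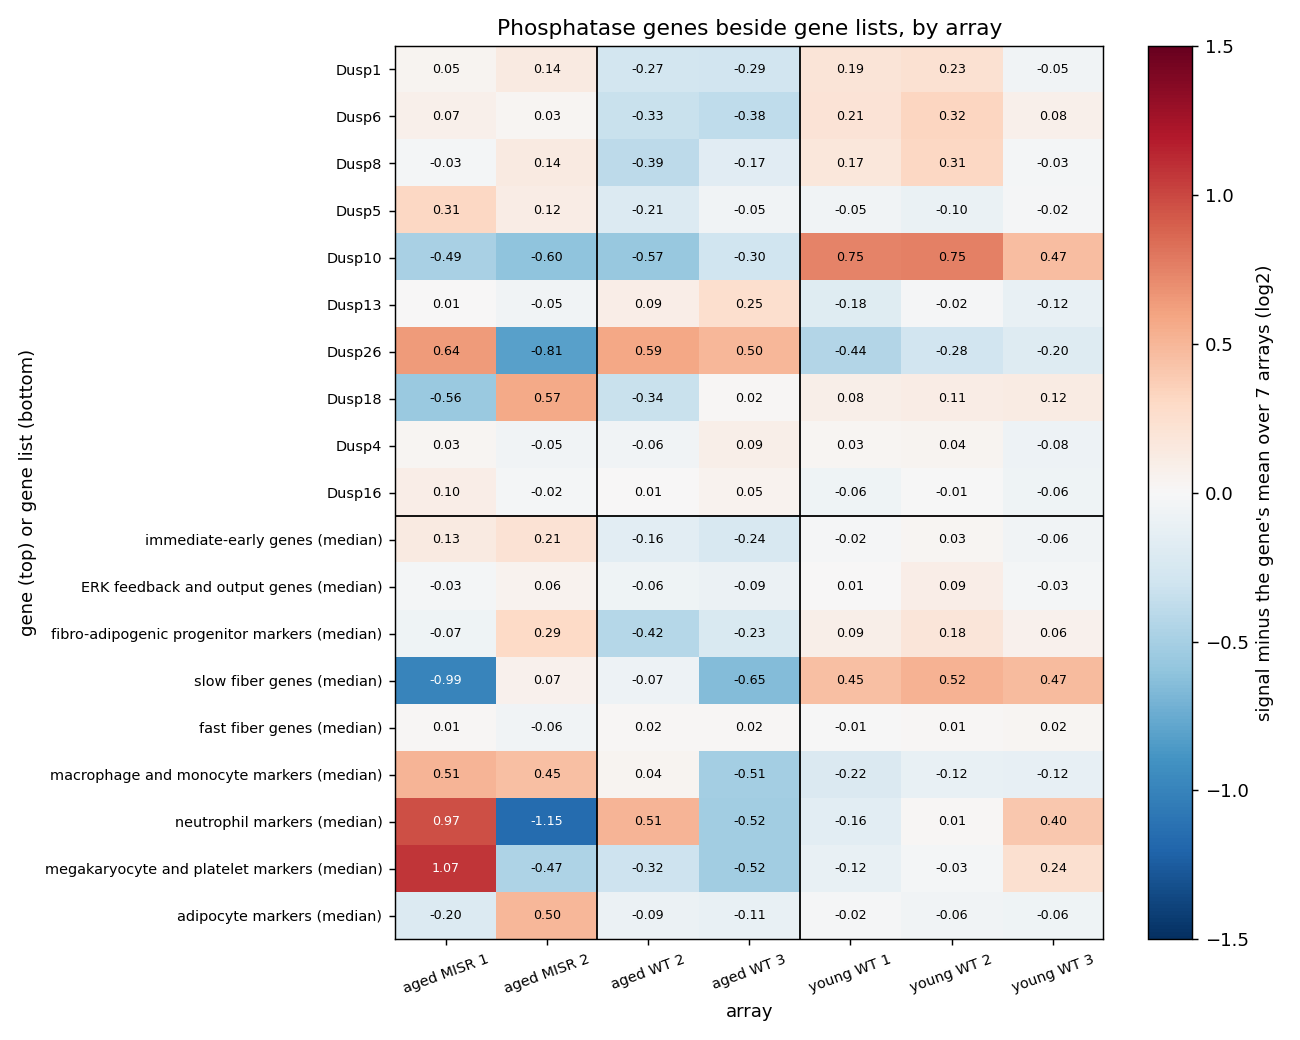
Signal minus each gene's mean over the 7 arrays (log2, color scale and printed values) for the 10 phosphatase genes (top) and the median over the tested genes of 9 gene lists (bottom), by array. Dusp1, Dusp6 and Dusp8 are lowest in the aged WT columns, as is the immediate-early list (-0.16 and -0.24), and Dusp26 and Dusp18 differ between the MISR columns.

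Counted over the family, aged MISR against aged WT muscle gave no call: limma called 0 of the 10 higher and 0 lower, and the methods' t-test also called 0 after adjustment (3 of all genes). Of all tested genes, 0.0524% were called higher and 0% lower. At an unadjusted p under 0.05, limma had 4 higher (Dusp1, Dusp5, Dusp6 and Dusp8) and 0 lower, against 8.08% and 4.09% of all genes; the methods' t-test had 2 higher (Dusp1 and Dusp6) and 0 lower, against 2.78% and 2.39% of all genes. The same 4 had MISR arrays above the aged WT arrays without overlap, and Dusp13 had them below, where 20.3% and 15.4% of all genes did. The median difference was 0.09 over the 10 and 0.01 over all genes, and the median absolute difference was 0.26 and 0.09.

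For aged WT against young WT muscle, 1 of 10 was called lower (Dusp10) and 0 higher, where 0.0823% and 0.0973% of all genes were. At an unadjusted p under 0.05, Dusp1, Dusp6, Dusp8 and Dusp10 were lower (4 of 10, against 6.41% of all genes) and Dusp13 was higher (1 of 10, against 9.26%). After adjustment the methods' t-test called 0 (1 of all genes), and unadjusted it had 3 lower and 2 higher, against 5.71% and 8.84% of all genes. Arrays did not overlap for 5 lower genes (Dusp1, Dusp6, Dusp8, Dusp10 and Dusp18) and 3 higher ones (Dusp13, Dusp16 and Dusp26), where 15.7% and 22% of all genes did not. The median difference was -0.17 over the 10 and 0.01 over all genes, and the median absolute difference was 0.34 and 0.10.

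For aged MISR against young WT muscle, 1 of 10 was called lower (Dusp10) and 0 higher, against 0.135% and 0.456% of all genes. At an unadjusted p under 0.05 only Dusp10 was lower and only Dusp5 higher, against 6.97% and 11.8% of all genes. Dusp6 and Dusp10 were lower and Dusp5 higher without overlap, where 13.6% and 24.4% of all genes were. The median difference was -0.02 over the 10 and 0.04 over all genes, and the median absolute difference was 0.10 and 0.11. The 3 comparisons share arrays, so Dusp1, Dusp6 and Dusp8 being lowest in aged WT enters both comparisons with that group.

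Among themselves, the members with the nearest patterns were Dusp4 and Dusp16 (root mean square difference 0.055), both nearly flat, followed by Dusp1 with Dusp8 (0.077) and Dusp1 with Dusp6 (0.082). The 5 genes nearest to Dusp6 among all tested were looked for after its values were seen. They were Plxdc2 (0.064), 2310075C17Rik (0.068), Olfml2b (0.071), Zfp36 (0.078) and Dusp1 itself (0.082). Zfp36 is an immediate-early gene whose product destabilizes AU-rich mRNAs.

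The rest of the dual-specificity phosphatases gave no call. Of 18 others listed, 14 were tested, Dusp15, Dusp21 and Styxl1 were under the filter, and Styx was not analysed here. Taking the largest absolute difference over the 3 comparisons, Dusp12, Dusp7, Dusp14 and Dupd1 led the list. Dusp12, a zinc-binding atypical phosphatase, gave 7.69 and 7.26 in aged MISR muscle, 7.84 and 7.71 in aged WT muscle, and 7.10, 7.19 and 7.19 in young WT muscle. All 4 aged arrays were above the young ones, with an aged WT difference of 0.62 (adjusted p = 0.108). Dusp7, a close relative of Dusp6, gave 8.73 and 8.64 in aged MISR muscle, 9.53 and 8.66 in aged WT muscle, and 9.06, 8.98 and 8.82 in young WT muscle, so that 1 aged WT array stood above all others. Dusp14 had a difference of -0.38 between aged MISR and young WT (adjusted p = 0.116) and -0.25 between aged WT and young WT (adjusted p = 0.257). Dupd1, which is expressed in muscle, had a difference of 0.33 between aged WT and young WT (adjusted p = 0.439).

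**Figure D4:**
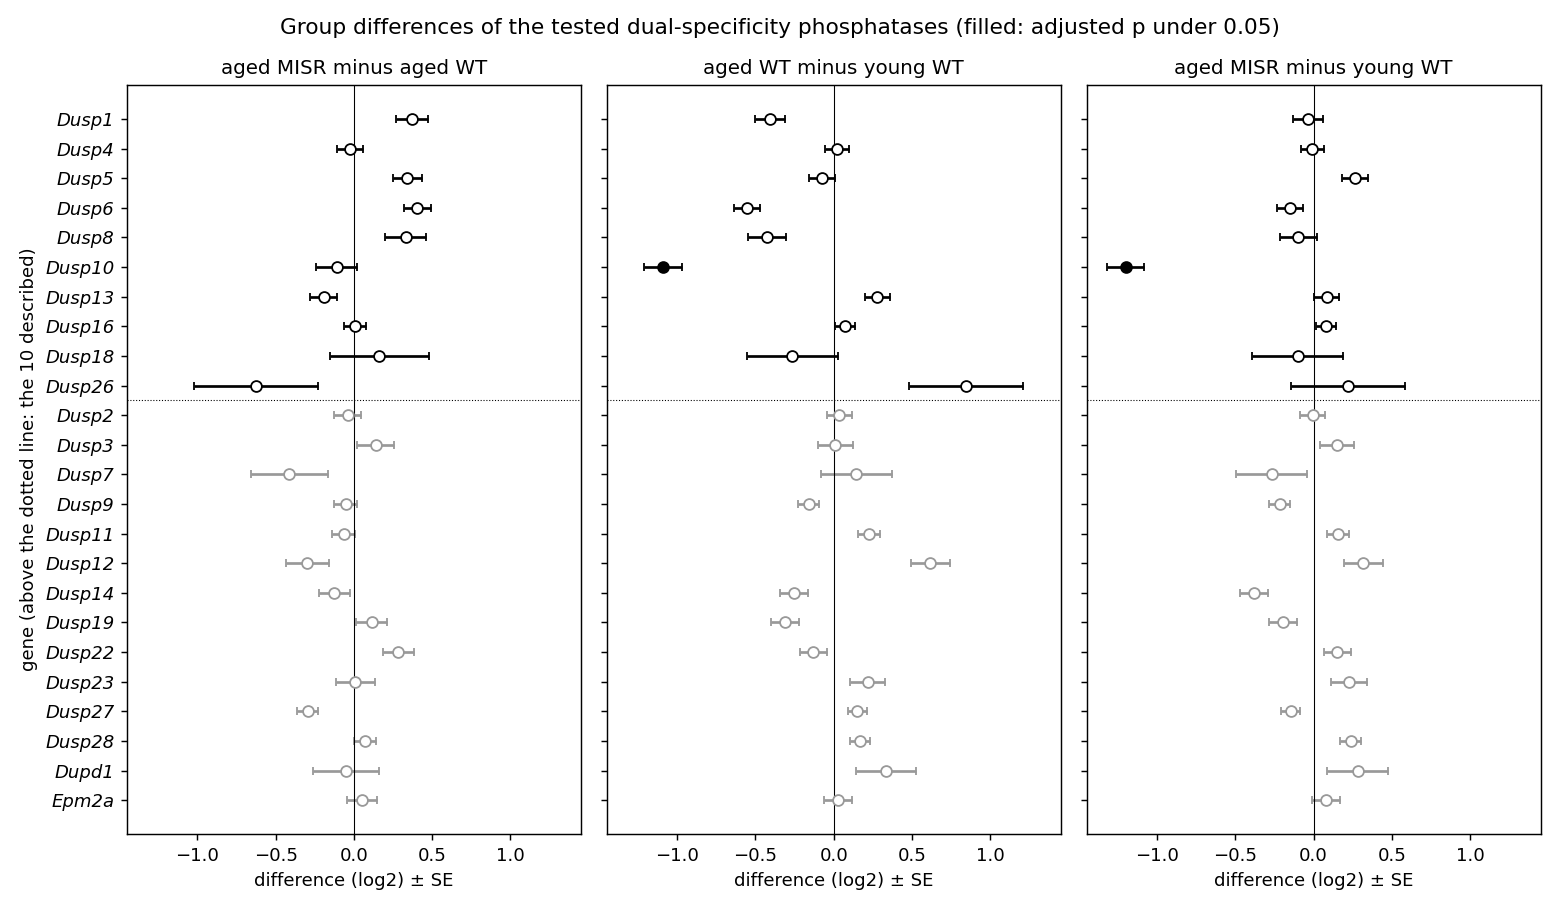
Log2 differences (points) ± SE (bars) of the 10 phosphatases described (black) and 14 other tested family members (gray) in 3 comparisons. Filled points mark an adjusted p under 0.05: only Dusp10 is filled, at -1.09 for aged WT minus young WT and -1.20 for aged MISR minus young WT.

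Of the kinases that these enzymes act on, none of the 7 tested MAP kinases was called in any comparison. Mapk11, encoding p38β, had the largest difference of the list and gave 6.84 and 6.89 in aged MISR muscle, 7.04 and 6.95 in aged WT muscle, and 7.18, 7.35 and 7.13 in young WT muscle. The groups did not overlap, with a difference from young WT of -0.35 in aged MISR (adjusted p = 0.111) and -0.22 in aged WT muscle (adjusted p = 0.262). Mapk14, encoding p38α, differed by -0.18 between aged WT and young WT (adjusted p = 0.323). Among the MAP2 kinases (6 tested, 0 called), Map2k6, an activator of p38, was lower in aged than in young arrays, with differences of -0.56 in aged WT (adjusted p = 0.187) and -0.58 in aged MISR muscle (adjusted p = 0.150). No scaffold (6 tested) and no MAPK-activated kinase (7 tested) was called.

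One gene upstream of the stress kinases was called. Gadd45g, which binds and activates the MAP3 kinase that feeds JNK and p38, was the only call among 17 tested MAP3 kinases and activators. It gave 9.12 and 9.24 in aged MISR muscle, 8.40 and 8.58 in aged WT muscle, and 9.71, 9.79 and 9.44 in young WT muscle. The 3 groups did not overlap, with aged WT lowest and young WT highest. Gadd45g was called lower in aged WT against young WT (-1.16, adjusted p = 0.0348), and its difference of 0.69 between aged MISR and aged WT was not called (adjusted p = 0.123).

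Genes of ERK feedback and output, which like Dusp6 follow ERK activity, gave no call in any comparison (13 tested). For aged MISR against aged WT, 3 were higher and 1 lower at an unadjusted p under 0.05, against 8.08% and 4.09% of all genes. By mean difference, 8 were higher and 5 lower. Spry1, a feedback inhibitor of receptor tyrosine kinase signaling, differed by 0.38 between aged MISR and aged WT (adjusted p = 0.248) and by -0.38 between aged WT and young WT (adjusted p = 0.164). Spred1, which restrains RAF activation, differed by 0.36 between aged MISR and aged WT (adjusted p = 0.148). Spred3, the 1 lower gene, went the other way, with a difference of -0.26 (adjusted p = 0.388). Over the 13 genes, the median difference was 0.09 between aged MISR and aged WT and -0.15 between aged WT and young WT.

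The immediate-early list holds genes that, like Dusp1, are transcribed quickly after a stimulus. For 17 of its 18 tested genes the MISR mean exceeded the aged WT mean, as it did for 54.2% of all tested genes. The median difference was 0.46 with 0 calls by limma, and 10 were higher at an unadjusted p under 0.05, against 8.08% of all genes. Nr4a3, an orphan nuclear receptor, gave 8.86 and 8.62 in aged MISR muscle, 6.97 and 7.77 in aged WT muscle, and 8.07, 8.09 and 8.03 in young WT muscle, with MISR arrays highest and aged WT arrays lowest (1.37, adjusted p = 0.107). Some markers of non-muscle cells also differed between the groups. The share of 54.2% of all genes also stands beside the counts of higher MISR means that follow. The fibro-adipogenic progenitor list (9 of 10 tested, all 9 with a higher mean in aged MISR than in aged WT) had centred medians of -0.07 and 0.29 in aged MISR muscle, -0.42 and -0.23 in aged WT muscle, and 0.06 to 0.18 in young WT muscle, with aged WT arrays lowest as for Dusp1, Dusp6 and Dusp8. The macrophage list (12 of 12 tested, all 12 higher in the MISR mean) had 0.51 and 0.45 in aged MISR muscle, 0.04 and -0.51 in aged WT muscle, and -0.22 to -0.12 in young WT muscle. Its cathepsin gene Ctss was called higher in aged MISR against young WT (1.04, adjusted p = 0.0455). Of the T and B cell list, all 4 tested genes had a higher MISR mean, and Jchain, the joining chain of secreted antibodies, was called. Jchain gave 9.59 and 8.44 in aged MISR muscle, 5.55 and 5.64 in aged WT muscle, and 5.65, 5.79 and 6.06 in young WT muscle. It was 10.7-fold higher in aged MISR against aged WT (adjusted p = 0.0349) and 9.08-fold higher against young WT (adjusted p = 0.0214). Jchain would not have passed the filter on signal without the MISR arrays. Both aged WT arrays, young WT 1 and young WT 2 lay under the array medians, so these folds are set against low signal. By the methods' t-test its adjusted p was 0.839 against aged WT and 0.296 against young WT. The part of these markers in the phosphatase values was not tested.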

How the data were processed

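The authors extracted RNA with Trizol, hybridized it to Mouse Gene 2.0 ST GeneChips and deposited RMA values on the log2 scale. The sources used here give no version or settings of RMA, a method that corrects background, normalizes arrays by quantiles and summarizes probes. Of 41345 features, 23521 carry 1 gene symbol in the platform annotation, 1820 carry several and were left unnamed, and 16004 are not listed. A gene was represented by its feature of highest mean and tested if it reached the array median in at least 2 arrays (13364 genes). One linear model over the 3 groups was fitted with limma 3.58.1 in R 4.3.3 (4 residual and 3.13 prior degrees of freedom). Benjamini-Hochberg adjustment ran over all tested genes, with a threshold of 0.05. This code was tested on simulated data. The number of arrays limits the precision.

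The members and lists were chosen with earlier results of these data known. Genes named were the 10 members, the calls of each list or up to 4 of its largest differences, and the 5 genes nearest to Dusp10. Zfp36, Plxdc2, 2310075C17Rik, Olfml2b, Pmp22, Slc15a5, Mchr1, Adcy5, Retsat, Lsmem1, Fam83d, Tpm3, Sox10 and the small RNAs were named after their values were seen. The numbers of replicates in the labels did not pair the arrays (correlation of deviations of same-numbered arrays -0.22 to -0.01). Alternatives covered normalization, centring, filter, features, variance prior, array weights, samples in the fit, threshold, test (the methods' t-test, 2-sided with equal variances, which the study names for other assays and not for the arrays), a replicate block and each array left out.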

Additional observations from a re-analysis of the deposited data

How the results depend on the processing

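With 2 or 3 arrays a group, calls depended on single arrays and settings, and the causes were not tested beyond what each setting changes. For aged MISR against aged WT muscle, 0 of the 10 genes were called under every setting except without MISR 1 (1, Dusp26). For aged WT against young WT, 1 gene (Dusp10) became 2 with repeated quantile normalization, the 60th percentile filter, the trended robust prior, array weights or an adjusted p under 0.1 (Dusp10 and Dusp6) and 2 in a fit of those groups alone (Dusp10 and Dusp26). It became 0 with no filter, the replicate block and the methods' t-test, and 0 to 3 with 1 array left out: 3 without either MISR array (Dusp6, Dusp10 and Dusp26) and 0 without any WT array. For aged MISR against young WT, 1 gene (Dusp10) became 0 with the block, the 2-group fit and the methods' t-test, and 0 to 2 with 1 array left out: 2 without MISR 2 (Dusp10 and Dusp26) and 0 without MISR 1, aged WT 3 or any young array. The median difference of the 10 genes ranged over the arrays left out from -0.014 (without aged WT 2) to 0.19 (without aged WT 3) for aged MISR against aged WT (0.09 with all arrays). It ranged from -0.28 (without aged WT 3) to -0.04 (without aged WT 2) for aged WT against young WT, and from -0.07 to 0.02 for aged MISR against young WT.

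Over all genes, the 7 calls for aged MISR against aged WT became 15 with arrays centred on their medians, 4 with no filter, 2 with array weights, 0 with the block or the 2-group fit, 59 at an adjusted p under 0.1, 3 by the methods' t-test and 0 to 106 with 1 array left out. The 24 for aged WT against young WT (13 higher, 11 lower) became 49 with centring (33 higher, 16 lower), 0 with no filter or the block, 57 with the 60th percentile filter, 88 with the trended prior, 118 with array weights, 162 in the 2-group fit, 156 at an adjusted p under 0.1, 1 by the methods' t-test and 0 to 164 with 1 array left out. The 79 for aged MISR against young WT became 34 with repeated quantile normalization, 128 with centring, 21 with no filter, 0 with the block, 26 with array weights, 13 in the 2-group fit, 280 at an adjusted p under 0.1, 6 by the methods' t-test and 0 to 458 with 1 array left out. Where a group was left with 1 array, it was assumed to vary like the others. The 60th percentile filter dropped Dusp4. With the replicate block, the adjusted p of Dusp10 was 0.198 for aged WT and 0.153 for aged MISR, each against young WT.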
